A study of Mus musculus with 574 samples.

Results

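The synaptic vesicle and release machinery was followed here through 34 named genes, out of 22331 genes that have a row in both deposited expression tables. The genes are a list of vesicle, fusion and recycling proteins drawn up with earlier results of these data known, and all 34 were found in both tables. The study sampled developing ventral midbrain of the mouse at embryonic days E10.5 to E13.5, in the C57BL/6 strain carrying 1 copy of an Lmx1a-EGFP reporter, so every group shares that heterozygous allele. Lmx1a is a transcription factor of the midbrain floor plate and of the progenitors of dopamine neurons, and the green fluorescent protein (GFP) was used to sort cells into GFP-positive (GFP+) and GFP-negative (GFP-) pools. There were 24 pools of 100 cells, 6 for each of E10.5 GFP+, E10.5 GFP-, E13.5 GFP+ and E13.5 GFP-. There were also 550 single cells, of which 24.9% came from E10.5, 16.4% from E11.5, 32.4% from E12.5 and the remaining 26.4% from E13.5. Nothing in the labels says that the pools of a group came from separate embryos, so the p-values measure how these pools vary, and that variation may be technical.

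At a synapse, vesicles filled with transmitter are docked and primed at the active zone, fuse with the plasma membrane when calcium enters, and are then retrieved by endocytosis. Fusion is driven by the SNARE proteins, which zip together across the vesicle and plasma membranes, while synaptotagmins sense calcium and complexins clamp or promote the final step. Immature neurons switch on many of these genes before they form synapses, since growing axons use the same machinery to add membrane, and several members also act in secretion outside neurons.

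The labels were first set against the reporter and its gene. EGFP RPKM ran from 170 to 231 in the E10.5 GFP+ pools and from 0 to 5.82 in the E10.5 GFP- pools. At E13.5 it ran from 51.1 to 80.3 with GFP, and every pool without GFP had a listed value of 0. RPKM is a read count divided by gene length and by library size, so levels can be compared between genes. The depth of a library was estimated, roughly, from the spacing of its lowest values, at 1.3 M to 3.67 M reads per pool and 0.403 M to 7.5 M per cell (M for 10 to the power 6). Globin genes held between 2.69% and 9.60% of the summed RPKM in 7 GFP- pools (E10.5 replicates 1, 2, 3, 5 and 6, and E13.5 replicates 3 and 5) and at most 0.018% in the other 17. Results that touch these pools are also given without them, which leaves 1 E10.5 GFP- pool, replicate 4.

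Most of the machinery was already detectable at E10.5 and rose steeply by E13.5. At a level of 1 RPKM or more in all 6 pools, 20 of the 34 members were on in the E10.5 GFP+ pools and 29 in the E10.5 GFP- pools, against 33 and 32 at E13.5. With the level set at 10 RPKM the numbers were 6 and 11 at E10.5 and 25 in both classes at E13.5. The share of all genes on by this rule was not counted, so these numbers describe the members only. Between E10.5 and E13.5 the summed RPKM of the 34 members went from 360 ± 25.9 (SD, n = 6) to 1774 ± 106.8 in GFP+ pools, and from 629 ± 102.9 to 2071 ± 184 in GFP- pools. Of the 33 members with at least 1 RPKM in 6 or more pools, which is every member but Sv2c, 30 rose in GFP+ pools and 29 in GFP- pools by limma with Benjamini-Hochberg adjustment over 15871 genes.

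Those counts have to be read against all genes tested. In GFP+ pools 22.1% of genes rose and 29.6% fell between the stages, and in GFP- pools 19.7% rose and 26.9% fell. The median member changed by 2.64 on the log2(RPKM + 1) scale in GFP+ pools and by 1.72 in GFP- pools, beside medians of -0.14 and -0.11 over all genes. No member fell in either class by limma, nor at an unadjusted p under 0.05. Without the 7 pools with globin, 29 members rose in GFP+ pools, with Vamp1 no longer called, and 20 in GFP- pools, where 1 E10.5 pool was left and was assumed to vary like the other groups. The 9 calls lost there were Snap25, Stx1a, Syt4, Cplx1, Nsf, Napb, Rims2, Syngr1 and Snap91, at adjusted p-values of 0.0627 to 0.793. Markers of neurons and dividing cells moved in the same interval: all 12 pan-neuronal genes tested rose in GFP+ pools, with a summed RPKM of 386 to 706 at E10.5 and 5937 to 6544 at E13.5, and all 10 cell cycle genes fell. In GFP- pools 10 pan-neuronal genes rose and 1, Nefm, fell, with sums of 1902 to 3618 and 6464 to 7123, and all 10 cell cycle genes fell. Genes of non-neural cells fell there too, 8 of 8 for microglia, 7 of 7 tested for mesenchyme and pericytes and 6 of 7 tested for red blood cells. The microglia sum had a median of 254 RPKM in E10.5 pools and 1.16 in E13.5 pools, the mesenchyme sum 204 and 2.445, and the red cell sum 30520 and 89.9. In pools, more neurons and more RNA per neuron cannot be told apart, and the part of these markers in the members' rise was not tested.

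**Figure D1:**
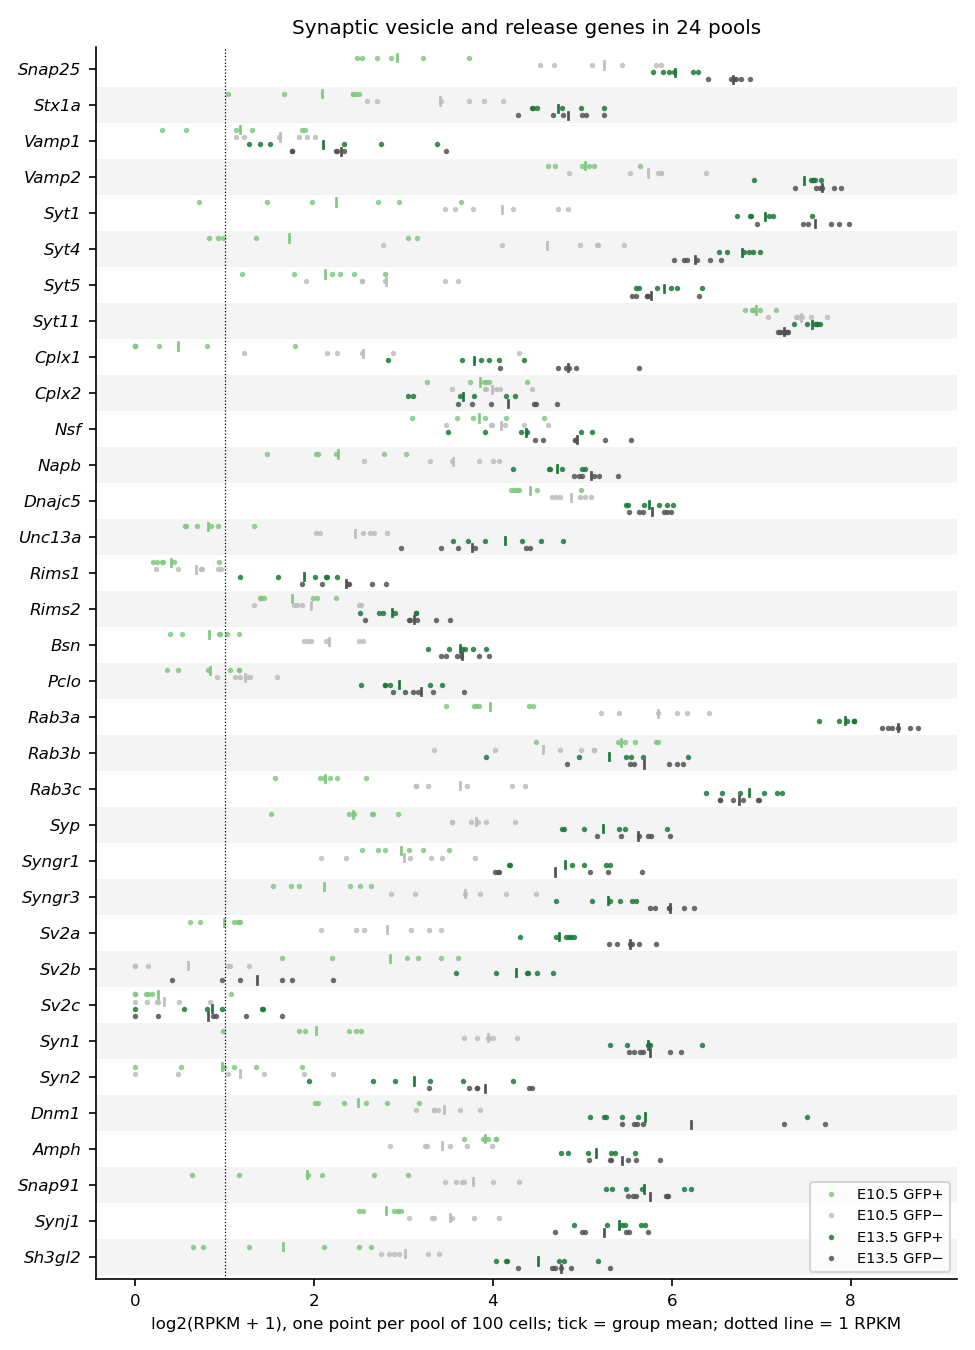
Level of each of the 34 members in the 24 pools of 100 cells, as log2(RPKM + 1), with 1 point per pool, a tick at each group mean and a dotted line at 1 RPKM. Most rows run from pale points at the left (E10.5) to dark points at the right (E13.5), while Cplx2 passed no test between stages and Sv2b is higher in GFP+ pools at each stage.

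The core SNARE genes differed in level. Snap25 encodes the plasma membrane SNARE with a pair of SNARE helices, and Stx1a its partner syntaxin. Snap25 RPKM was 4.60, 5.89 and 12.3 (lowest, median and highest pool) in E10.5 GFP+ pools and 21.98, 38.05 and 57.8 in E10.5 GFP- pools. At E13.5 it was 54.5, 62.9 and 77.6 in GFP+ pools and 83.8, 103.6 and 116.8 in GFP- pools. The classes did not overlap at either stage, but the adjusted p was 1.33e-08 at E10.5 (log2 difference -2.32, SE 0.22) and 0.07 at E13.5 (-0.65, SE 0.22). Stx1a went from a mean of 3.54 ± 1.54 RPKM to 26.1 ± 6.505 in GFP+ pools, a 7.37-fold rise.

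The vesicle SNAREs Vamp1 and Vamp2, the synaptobrevins, were far apart. Vamp2 was among the most abundant members at both stages, at 32.5 ± 9.11 RPKM in E10.5 GFP+ pools and 181 ± 30.3 at E13.5, where 1 pool stood at 120 and the other 5 between 187 and 203. Vamp1, the isoform of brainstem and spinal circuits in the adult, reached no more than 10.1 RPKM in any pool. Its rise in GFP+ pools, from 1.46 ± 1.05 to 4.01 ± 3.13, passed the test at an adjusted p of 0.0403, and leaving out E10.5 replicate 2, 4, 5 or 6 or E13.5 replicate 2, 4 or 5 gave adjusted p-values between 0.0503 and 0.128.

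Among the calcium sensors, Syt4 had the largest change in GFP+ pools and Syt11 the smallest of those called there. Syt1, the fast calcium sensor, went from 4.87 ± 3.99 to 133.7 ± 29.5 RPKM in GFP+ pools (27.5-fold) and from 17.4 ± 7.598 to 198 ± 46.9 in GFP- pools (11.4-fold). Syt4, an unusual synaptotagmin of dense-core vesicles, was at 0.774, 1.27 and 7.92 RPKM (lowest, median, highest) in E10.5 GFP+ pools and at 5.82, 32.7 and 43.1 in E10.5 GFP- pools. By E13.5 it stood at 91.6, 113.3 and 125.6 in GFP+ pools and 64.2, 73.7 and 92.9 in GFP- pools. The class that was lower at E10.5 thus had the higher median at E13.5, and the E13.5 difference of 0.52 (SE 0.39, adjusted p = 0.516) did not pass the test.

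Syt11 does not bind calcium and is found in many cell types. It was the most abundant member at E10.5, at 122.8 ± 10.7 RPKM in GFP+ and 174.4 ± 25.9 in GFP- pools, where it made up 34.2% and 27.9% of the members' summed RPKM. At E13.5 it was at 188.7 ± 13.53 and 151.4 ± 4.83, and its share had come down to 10.7% and 7.36%. The GFP+ pools were lower at E10.5 (log2 difference -0.49, adjusted p = 0.000401) and higher at E13.5 (0.31, adjusted p = 0.0374), with no overlap at E13.5. The E13.5 call was lost, at adjusted p-values of 0.0519 to 0.0732, when GFP+ replicate 1, 2, 3, 4 or 5 or GFP- replicate 1, 2, 3, 4 or 5 was left out.

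Syt5 rose from 3.60 ± 1.61 to 60.1 ± 12.1 RPKM in GFP+ pools. The complexins went separate ways. Cplx1 was listed at 0 in 3 of 6 E10.5 GFP+ pools and reached 2.45 in the highest, against 6.09 to 19.3 at E13.5. Cplx2 was at 13.9 ± 3.61 RPKM in E10.5 GFP+ pools and 12.3 ± 4.48 at E13.5, with an adjusted p of 0.516, and it passed the test in no comparison of stages or GFP classes.

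The genes that take spent SNARE complexes apart were on early. Nsf is the ATPase that does so, and its levels were 14.1 ± 5.22 and 16.5 ± 4.56 RPKM in E10.5 GFP+ and GFP- pools and 21.2 ± 9.09 and 30.8 ± 9.17 at E13.5. It rose in GFP- pools (log2 change 0.85, adjusted p = 0.0104), where the change without the 7 pools with globin was 0.25, with 1 E10.5 pool left. In GFP+ pools the change of 0.52 did not pass the test (adjusted p = 0.11). Napb, the brain form of its adaptor SNAP, rose 6.24-fold in GFP+ and 2.94-fold in GFP- pools. Dnajc5 encodes the cysteine string protein, a vesicle chaperone that protects SNAP-25, and rose from 20.7 ± 5.06 to 53.3 ± 8.32 RPKM in GFP+ pools. Its lower level in GFP+ pools at E10.5 (-0.46, adjusted p = 0.0369) was lost, at 0.0726 to 0.0875, without GFP+ replicate 2, 3, 4 or 6 or GFP- replicate 1, 2 or 3.

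The active zone genes were the scarcest group. Unc13a encodes the priming factor Munc13-1, and its E10.5 RPKM was 0.471, 0.709 and 1.504 in GFP+ and 3.07, 5.005 and 6.05 in GFP- pools, with no overlap. By E13.5 it was at 17.5 ± 6.19 and 13.46 ± 5.46. The scaffolds followed at lower levels: Bsn (Bassoon) went from 0.811 ± 0.36 to 11.6 ± 1.89 RPKM in GFP+ pools and Pclo (Piccolo) from 0.831 ± 0.418 to 6.92 ± 1.95. Rims1 was under 1 RPKM in all 12 E10.5 pools and at 1.26 to 5.97 in all 12 E13.5 pools, the only member to be off in every pool at E10.5 and on in every pool at E13.5. It passed the filter on low values through the E13.5 pools alone, so its call as risen adds nothing to those values. Rims2, its relative, was already at 1.52 to 4.78 RPKM at E10.5.

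Rab3 proteins are small GTPases that tether vesicles before fusion. Rab3a was the most abundant member at E13.5. Its E10.5 RPKM was 10.2, 13.2 and 20.8 (lowest, median, highest) in GFP+ and 35.9, 61.2 and 84.3 in GFP- pools. At E13.5 it reached 199, 255 and 262 in GFP+ and 325, 359 and 430 in GFP- pools. The classes did not overlap at either stage, and GFP+ pools were lower at both (adjusted p = 1.23e-08 and 0.0375). The E13.5 call was lost, at adjusted p-values of 0.0502 to 0.0853, without GFP+ replicate 1, 2, 3, 4 or 5 or GFP- replicate 1, 3, 4, 5 or 6.

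Rab3c had a 34.1-fold rise in GFP+ pools, from 3.46 ± 0.978 to 117.9 ± 27.3 RPKM. Rab3b behaved unlike its relatives: its E10.5 RPKM was 21.4 to 56.5 in GFP+ and 9.18 to 34.05 in GFP- pools (log2 difference 0.88, adjusted p = 0.0868). In GFP+ pools it then went from 44.3 ± 12.8 to 42.6 ± 19.4, with an adjusted p of 0.752, while in GFP- pools it rose from a mean of 24.8 to 52.7 (1.12, adjusted p = 0.00711). Rab3b was the second most abundant member of the E10.5 GFP+ pools.

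Of the vesicle membrane genes, Syp (synaptophysin), Syngr1, Syngr3 and Sv2a rose in both classes. Sv2a, which encodes the vesicle glycoprotein bound by levetiracetam, rose 25.8-fold in GFP+ pools, from 1.01 ± 0.325 to 26.03 ± 3.78 RPKM, and 7.11-fold in GFP- pools, from 6.44 ± 2.599 to 45.8 ± 6.04. It stayed lower in GFP+ pools at E13.5 (log2 difference -0.79, adjusted p = 0.0186), and without GFP+ replicate 2 the adjusted p was 0.0514. Sv2c, the form of the adult basal ganglia, was at or under 2.11 RPKM in every pool and was not tested.

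Sv2b was higher in GFP+ pools at both stages. Its RPKM was 2.12, 7.602 and 11.2 (lowest, median, highest) in E10.5 GFP+ pools and 0, 0.579 and 1.41 in E10.5 GFP- pools. At E13.5 it was 11.01, 19.9 and 24.5 in GFP+ and 0.329, 1.69 and 3.63 in GFP- pools. The classes did not overlap at either stage. It was the only member higher in GFP+ pools at E10.5 (log2 difference 2.26, SE 0.35, adjusted p = 3.99e-05), and it was higher there at E13.5 as well (2.90, SE 0.35, adjusted p = 2.23e-06). Between the stages it rose in GFP+ pools (1.41, adjusted p = 0.00147), and its change of 0.77 in GFP- pools did not pass the test (adjusted p = 0.0746). The change of the GFP difference did not pass it either (0.64, SE 0.50, adjusted p = 0.548). Sv2b lies on chromosome 7 at 75114894 to 75309262 of GRCm38, and an exon of a transcript on the other strand overlaps it by 47 bases, so that reads of both could be mixed if strand was not used in counting.

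The synapsins tether vesicles to each other and to actin. Syn1 RPKM was 0.969, 3.502 and 4.76 (lowest, median, highest) in E10.5 GFP+ and 11.8, 14.5 and 18.2 in E10.5 GFP- pools, and at E13.5 the means were 53.5 ± 14.1 and 53.6 ± 9.29. The classes were apart at E10.5 and overlapped at E13.5. Syn2 was lower, at 0 to 3.62 RPKM at E10.5 and 2.85 to 20.7 at E13.5.

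The endocytosis genes rose together: all 5 passed the test in both classes. Dnm1, the neuronal dynamin that cuts vesicles from the membrane, had uneven pools. At E13.5 it was at 181 RPKM in GFP+ replicate 6 and 32.96 to 48.2 in the other 5, and at 151.3 and 208.2 in GFP- replicates 6 and 4 and 42.4 to 50.3 in the other 4. Amph, the amphiphysin that recruits dynamin, was at 11.8 to 15.4 RPKM in E10.5 GFP+ and 6.197 to 14.9 in E10.5 GFP- pools (log2 difference 0.49, adjusted p = 0.0836). Snap91, the clathrin adaptor AP180, rose 15.3-fold in GFP+ pools to 52.2 ± 15.5 RPKM, Sh3gl2 (endophilin A1) 8.60-fold to 22.7 ± 7.78, and Synj1, the phosphatase that helps shed the clathrin coat, 7.02-fold to 42.3 ± 8.09.

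The GFP classes differed far more at E10.5 than at E13.5. At E10.5, 20 of 33 members were lower in GFP+ pools and 1, Sv2b, was higher, beside 8.64% and 4.51% of all genes. At E13.5, 2 were lower (Rab3a, Sv2a) and 2 higher (Sv2b, Syt11), beside 3.74% and 3.42% of all genes. The median member differed by -0.95 at E10.5 and by -0.26 at E13.5, with medians of -0.01 and -0.03 over all genes. The lower group at E10.5 was spread over the roles, with 3 of 4 core SNAREs, 4 of 6 calcium sensors and complexins, 2 of 3 recycling ATPase and chaperone genes, 2 of 5 active zone genes, 2 of 3 Rab3 genes, 4 of 7 tested vesicle membrane genes and 3 of 5 endocytosis genes. Without the 7 pools with globin, the E10.5 GFP- group was 1 pool, replicate 4, so only sizes are given for E10.5. The Sv2b difference was then 2.85, and the 20 members called lower ran from -3.81 (Cplx1) to -0.26 (Synj1). At E13.5, also without the 7 pools, no member was lower (0 by limma, with Rab3a and Sv2a at adjusted p-values of 0.0653 and 0.0619), and Syt11 was no longer called higher (adjusted p = 0.0546).

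The change of the GFP difference between the stages was tested itself. It was positive for 10 members (Snap25, Syt4, Syt11, Unc13a, Bsn, Rab3a, Rab3c, Sv2a, Syn1 and Snap91) and negative for 0, beside 3.93% and 1.9% of all genes. A positive value means a larger change on the log2(RPKM + 1) scale in GFP+ pools, and not always a larger gain in RPKM. At an unadjusted p under 0.05 the counts were 19 and 2. The share of all genes at that level was not counted, so nothing is read from these 2 counts. Syt4 had the largest such change, 3.41 (SE 0.56, adjusted p = 0.000235). Without the 7 pools with globin the E10.5 GFP- group was 1 pool, replicate 4, so only sizes are given and no calls are read. The change was then 2.24 for Snap25, 3.99 for Syt4, 0.94 for Syt11, 1.895 for Rab3a and 2.09 for Rab3c. It was 1.645 for Unc13a, 0.99 for Bsn, 1.60 for Sv2a, 2.04 for Syn1 and 2.21 for Snap91. For Cplx1 it was 2.98, and that 1 pool held the highest Cplx1 value of its group, 18.5 RPKM. For Sv2a the call was lost on leaving out any of 14 pools in turn (GFP+ replicates 1 and 3 and GFP- replicates 1, 4 and 5 at E10.5, GFP+ replicates 1, 3, 4, 5 and 6 and GFP- replicates 1, 2, 4 and 6 at E13.5), at adjusted p-values of 0.05 to 0.0725.

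**Figure D2:**
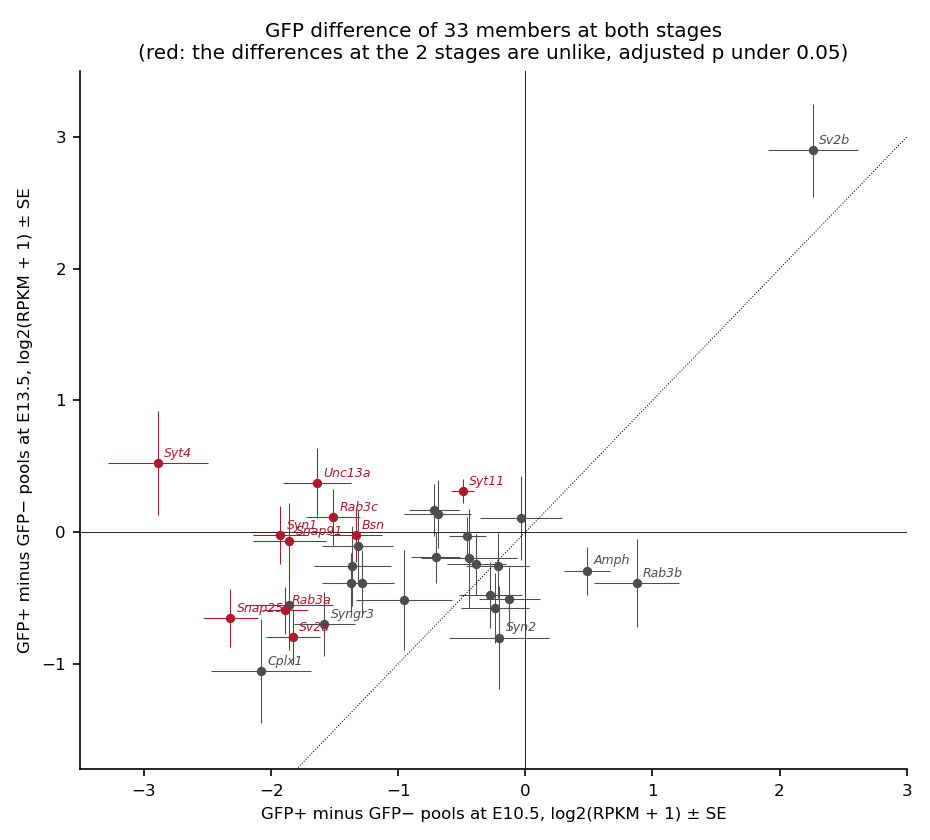
Difference between GFP+ and GFP- pools of 33 members, E10.5 on the x axis and E13.5 on the y axis, both as log2(RPKM + 1) with bars of 1 SE and a dotted line of equality. Syt4 lies at -2.89 and 0.52 and Sv2b alone at the upper right (2.26 and 2.90); red points are the 10 members whose GFP difference changed between the stages by the test.

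Markers of other cells moved with the GFP classes. All 12 pan-neuronal genes were lower in E10.5 GFP+ pools, with a summed RPKM of 386 to 706 against 1902 to 3618, and at E13.5 2 were lower and 1 was higher, at 5937 to 6544 against 6464 to 7123. Tubb3, the neuronal tubulin, was at 214 ± 37.9 and 928 ± 226 RPKM in E10.5 GFP+ and GFP- pools, and Stmn2, a microtubule protein of young neurons, at 53.5 ± 29.6 and 497.3 ± 123.1. All 7 genes of GABAergic neurons were lower at both stages, at 0 to 11.8 against 33.6 to 108.5 at E10.5, with Gad1 and Dlx2 at 0 in every E10.5 GFP+ pool. The microglia list summed to at most 1.14 in E10.5 GFP+ pools and up to 631 in E10.5 GFP- pools, with C1qa, C1qb, C1qc, Aif1 and Tyrobp at 0 in the former. The mesenchyme and pericyte list summed to 5.55 to 29.7 in E10.5 GFP+ pools and had a median of 204 in E10.5 GFP- pools, with no overlap and 6 of 7 tested genes lower. At E13.5 the dopamine neuron list summed to 723 to 1237 in GFP+ and 63.9 to 142.1 in GFP- pools, the Barhl1 lineage list to 1397 to 1725 and 437 to 594, and the progenitor list to 1620 to 2472 and 678 to 1631. The E10.5 GFP+ pools were also shallower, at a median of 1.8 M against 2.51 M reads. The part of these markers and of depth in the members' differences was not tested.

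To set the members beside the general neuronal content of a pool, each pool's values were also taken relative to the mean of the 12 pan-neuronal genes. That mean is not a count of neurons, and the scale does not correct for cell makeup. On that scale 32 of 33 members were higher in GFP+ pools at E10.5 and 0 lower by limma, also at an unadjusted p under 0.05, but so were 98.1% of all genes (0.227% lower), and nothing is read from the count. Syt4 was the exception, at -0.01 (SE 0.32, adjusted p = 0.982), so its GFP difference was that of the pan-neuronal mean. At E13.5 2 members, Syt11 and Sv2b, were higher and 0 lower, beside 4.78% and 1.01% of genes. At an unadjusted p under 0.05 the counts were 3 and 0, with no share of all genes counted at that level. The Syt11 call (0.61, adjusted p = 0.0291) was lost, at 0.0516 to 0.0686, without GFP+ replicate 1, 2, 4 or 5 or GFP- replicate 1, 3 or 4.

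Against the same reference, the change between stages was above that of the pan-neuronal mean for 3 members in GFP+ pools, Syt1 (1.10, adjusted p = 0.000352), Syt4 (1.37, adjusted p = 0.00017) and Rab3c (1.03, adjusted p = 7.16e-05), and below it for 22, some of which did not rise, beside 0.435% and 97.8% of genes. With the median of the 12 genes as the reference, it was above for 0 members. In GFP- pools the change was above that of the mean for 16 members and below it for 2, Syt11 and Cplx2, neither of which rose by the test, beside 4.13% and 68.7% of genes, and with the median as reference the counts were 8 and 6. The change of the GFP difference between the stages was negative on this scale for 30 members and positive for 0, beside 94.6% and 0.107% of genes. At an unadjusted p under 0.05 the counts were the same. These counts are near the share of all genes, and nothing is read from them.

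The wider release machinery moved less uniformly. Of 86 further genes listed for the pathway, 78 could be tested, and 40 rose and 12 fell in GFP+ pools (22.1% and 29.6% of all genes), and 40 and 11 in GFP- pools (19.7% and 26.9%). The 3 largest rises in GFP+ pools among genes over 10 RPKM were Dnajc6 (auxilin, which strips clathrin coats), from 1.36 ± 1.46 to 92.6 ± 45.3 RPKM, Sgip1, from 1.63 ± 1.76 to 61.4 ± 17.4, and Apba1, from 1.23 ± 0.673 to 44.7 ± 8.12. The genes that fell included broadly expressed counterparts of neuronal members: Snap23, from 27.6 ± 4.65 to 9.40 ± 2.25 RPKM, Vamp3, from 90.1 ± 13.7 to 35.9 ± 3.56, and Syngr2, from 33.2 ± 2.73 to 6.89 ± 6.51. In GFP- pools Snap23 and Syngr2 fell as well, by 1.92 and 2.80 on the log2 scale.

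Between GFP classes, 10 of the 78 were lower and 4 higher in GFP+ pools at E10.5, beside 8.64% and 4.51% of all genes, and 6 lower and 3 higher at E13.5, beside 3.74% and 3.42%. These counts are near the background, and nothing is read from them. Svop, a vesicle membrane transporter homologue, was at 1.73 ± 0.993 RPKM in E10.5 GFP+ and 14.3 ± 5.76 in E10.5 GFP- pools. Syt13 and Cltb were lower too, at 4.08 ± 1.53 against 18.4 ± 3.95 and at 10.4 ± 4.47 against 26.7 ± 1.90. Stxbp6 (amisyn) was higher in GFP+ pools at both stages, at 44.4 ± 12.9 against 19.9 ± 5.48 and at 25.9 ± 14.6 against 4.80 ± 2.42. At E13.5 Syt10 was at 10.9 ± 2.88 RPKM in GFP+ and 0.549 ± 1.26 in GFP- pools (adjusted p = 4.37e-06). Synpr (synaptoporin) was lower in GFP+ pools, at 1.78 ± 1.56 against 12.52 ± 3.99.

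The promoters of 27 members were available as 300-base RefSeq windows on GRCm38.p6, 250 bases before and 50 after the start, and were searched on both strands. The repressor REST shuts neuronal genes off in non-neuronal cells through the RE1 element, whose left arm was searched as TTCAGCACC and right arm as GGACAGC, and CREB binds the CRE, searched as TGACGTCA. The left arm was in the windows of 2 members, Syn1 and Unc13a, and in 0.371% of all 32851 windows, and the right arm in that of Unc13a and in 6.56%. The CRE was in those of Syn1 and Sh3gl2 and in 1.79%. These 3 sequences are shown because all 3 genes were lower in E10.5 GFP+ pools and rose to E13.5, with capitals for the matched letters.
Syn1 upstream stretch, chrX:20921005-20921168, minus strand: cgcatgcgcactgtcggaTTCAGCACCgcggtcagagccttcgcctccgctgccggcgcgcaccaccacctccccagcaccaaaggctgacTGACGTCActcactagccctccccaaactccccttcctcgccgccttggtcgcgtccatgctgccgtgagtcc
Unc13a site, chr8:71671727-71671750, minus strand: GCTGTCCgcgcccccGGTGCTGAA
Sh3gl2 site, chr4:85205408-85205437, plus strand: atcacccgcccTGACGTCAgggtgtctctc
The Syn1 stretch carries the left arm at -232 and the CRE at -159 from the start. In Unc13a both arms are read on the other strand, right arm first, from 7 to 30 bases after the start. The NBRE, the site of NR4A receptors, searched as AAAGGTCA, was in 0 member windows and 1.51% of all, and the letters TATAAA were in those of Rab3b and Sv2b and in 13.6%. A match is a match of letters only.

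In single cells the machinery was read as detection, a cell counting as positive at RPKM 10 or more, a level of about 27.3 reads for a 2-kilobase transcript at the median depth. Each stage was treated as 1 sample, because the labels name no animals. Titles of E12.5 cells start with C or F, and the meaning of these letters is not given. Intervals are exact 95% binomial ones that cover counting error only. Cells with Stmn2 made up 8.76% of cells at E10.5 (12 cells), 57.8% in the E11.5 sample, 75.8% in that of E12.5 and 82.1% at E13.5. Among cells with Stmn2 the median number of members per cell was 9.5, 9, 11 and 14 from the earliest stage to the latest. Among cells without it the medians were 3, 4, 5 and 2. Every cell had at least 1405 genes at 1 RPKM or more, and the median number of such genes was 5888, 3567, 4192 and 4292 in Stmn2 cells and 5745, 3664, 4565 and 4039 in the others. The estimated depth was a median of 3.298 M reads in the 12 Stmn2 cells of E10.5 and 1.303 M in the other cells of that stage. From E11.5 to E13.5 it was 0.785 M, 1.365 M and 1.758 M in Stmn2 cells and 0.653 M, 1.462 M and 1.698 M in the others. The part of depth in the shares and in the numbers per cell was not tested.

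**Figure D3:**
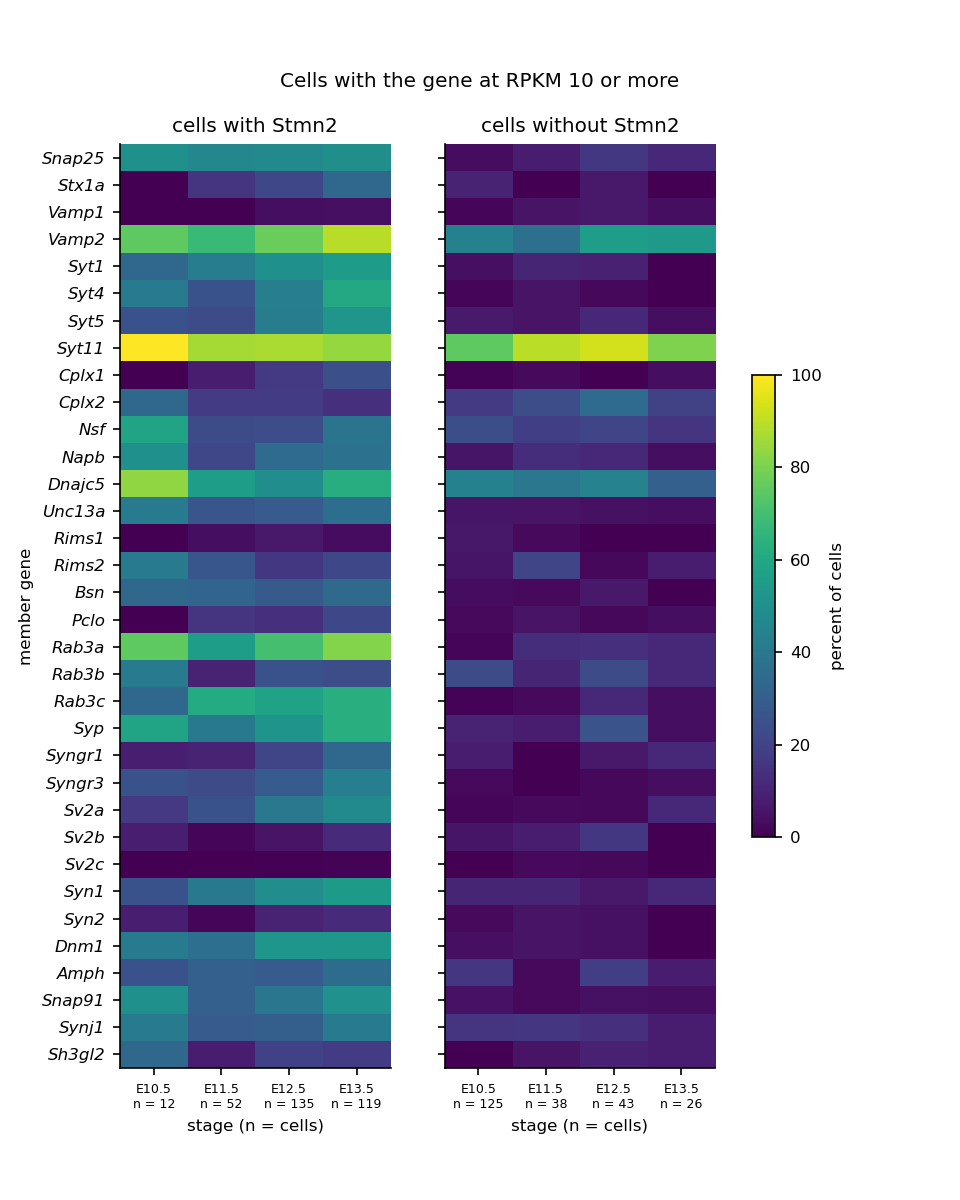
Share of cells with each member at RPKM 10 or more, by stage, in cells with Stmn2 (left) and without (right), on a colour scale from 0 to 100%. Rab3a is at 81.5% and 11.54% at E13.5, while Syt11 is above 75% in every column.

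Some members marked neurons and others did not. Rab3a was detected in 9 of 12 Stmn2 cells at E10.5 and 81.5% of those at E13.5 (97 cells, interval 73.4 to 88.04%), against 1.6% (2 cells, 0.194 to 5.66%) and 3 of 26 cells without Stmn2. Snap25 was in 50%, 46.2%, 47.4% and 49.6% of Stmn2 cells from E10.5 to E13.5 and in 3.20% to 16.3% of the others. Syt4 was in 41.7%, 25%, 42.96% and 60.5% of Stmn2 cells and in at most 5.26% of the others. Syt11, in contrast, was in 84.03% to 100% of Stmn2 cells and 75.2% to 93.02% of the others.

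Vamp2 was in 67.3% to 89.1% of Stmn2 cells but also in 36.8% to 55.8% of the others, Dnajc5 in 48.9% to 83.3% and 30.8% to 44.2%, and Nsf in 23.1% to 58.3% and 15.4% to 24%. Rab3b was in 23.2% of E10.5 cells without Stmn2. At E13.5, 33 of 34 members were detected more often in Stmn2 cells. Cplx2 was detected less often there, at 13.4% against 19.2%, with overlapping intervals (7.88 to 20.9% and 6.56 to 39.4%). The counts from E10.5 to E12.5 were 28, 27 and 29 more often and 5, 7 and 5 less often. Vamp1 was among the latter at each of these stages, and Syt11, Cplx2, Sv2b and Sv2c at E11.5 and E12.5. No share over all genes was counted beside these numbers, so they describe the members only. Cplx2, Nsf and Rab3b, the members not called between stages in GFP+ pools, were in 16.8%, 24% and 23.2% of E10.5 cells without Stmn2, beside a median of 5.6% over the members. Vamp2, Dnajc5 and Syt11 were in larger shares of those cells and did rise in GFP+ pools. Sv2c was found in at most 2 cells at any stage and Vamp1 in at most 8.

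**Figure D4:**
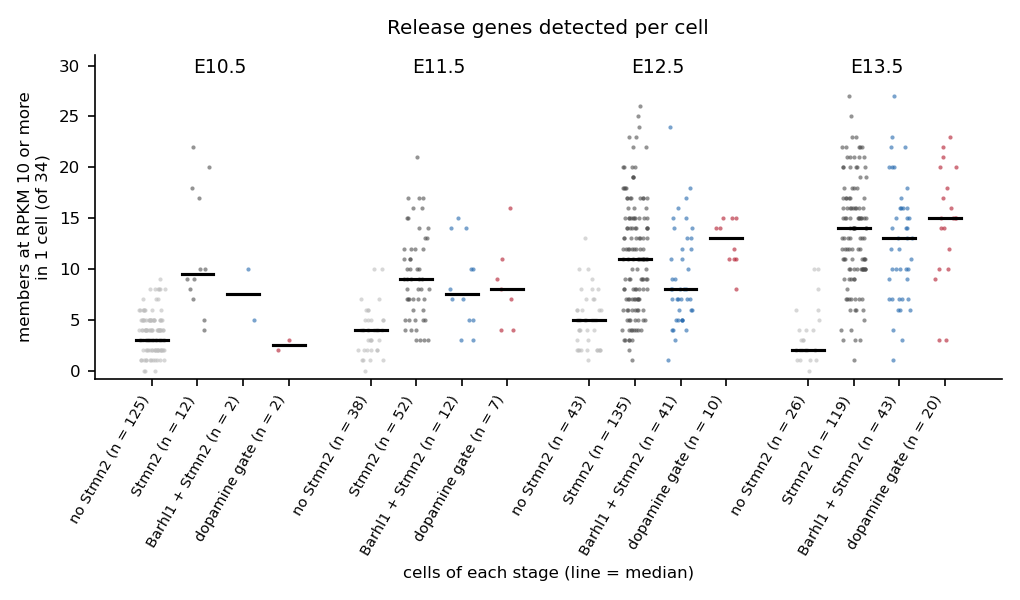
Number of the 34 members at RPKM 10 or more in each cell (1 point per cell, line at the median), by stage, for cells without Stmn2, with Stmn2, in the Barhl1 gate with Stmn2 and in the dopamine gate. At E13.5 the medians are 2, 14, 13 and 15.

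The gates compared dopamine cells, with both Th (tyrosine hydroxylase, which makes the precursor of dopamine) and Nr4a2 (a transcription factor they need) at RPKM 10 or more, with cells expressing Barhl1, a transcription factor of the neighbouring subthalamic lineage. There were 39 dopamine cells (2, 7, 10 and 20 by stage), 7.09% of all cells, and Barhl1 cells made up 29.27% (37, 24, 50 and 50 by stage), and 4 cells in both gates were left out. The dopamine cells were nearly all neurons, with Stmn2 in 37 of 39, while 98 Barhl1 cells had it and 63 did not. The median number of members per cell was 14 in dopamine cells and 6 in Barhl1 cells, and 10 in Barhl1 cells with Stmn2, at medians of 4453, 4356 and 4144 genes.

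Over all gate cells 31 of 34 members were detected in a larger share of dopamine cells, with a median difference of 10.9 percentage points. The widest gaps were for Rab3a (76.9% against 40.4%), Snap25 (58.97% against 26.7%), Syt4 (64.1% against 32.3%), Rab3c (66.7% against 37.3%), Dnm1 (53.8% against 25.5%) and Syt1 (53.8% against 26.7%). Vamp1, Cplx1 and Bsn had the smaller share in dopamine cells. Among gate cells with Stmn2, 26 members were higher and 8 lower, and the median difference was 5.92 points. Rab3a was then at 81.1% against 64.3% and Snap25 at 62.2% against 38.8%. With each stage treated as 1 sample there is no test of these differences. Directions, here and within stages, were counted for the members alone, with no share over all genes beside them. Nothing is read from these counts about the members as a set.

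Within stages and among gate cells with Stmn2, 15 members were higher and 16 lower in dopamine cells at E11.5 (7 against 12 cells), 25 and 7 at E12.5 (10 against 41) and 24 and 10 at E13.5 (20 against 43). The median number of genes detected was 2844 against 4062 at E11.5, 4338 against 4104 at E12.5 and 4791 against 4234 at E13.5. The part of this in the member counts was not tested. E13.5 is the stage with the most cells. There Vamp2 and Syt11 were in 20 of 20 dopamine cells (interval 83.2 to 100%), against 35 of 43 (66.6 to 91.6%) and 34 of 43 (63.96 to 89.96%) Barhl1 cells with Stmn2. Snap25 was in 13 of 20 (65%, 40.8 to 84.6%) against 15 of 43 (34.9%, 21.01 to 50.9%), although its median level in positive cells was 87.3 RPKM against 193. Syt4 was in 85% against 60.5%, Stx1a in 50% against 25.6%, Amph in 55% against 32.6% and Pclo in 30% against 9.30%. For each member named here at E13.5 the intervals of the gates overlapped.

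Other members leaned towards the Barhl1 cells at E13.5. Syngr3 was in 48.8% of Barhl1 cells with Stmn2 and 30% of dopamine cells, Bsn in 41.9% and 25%, Cplx1 in 25.6% and 10%, and Syt5 in 55.8% and 40%. For each of these 4 the intervals of the gates overlapped. Rab3c (67.4% and 70%), Syn1 (44.2% and 45%), Napb (39.5% and 40%) and Nsf (32.6% and 35%) were within 3 points of each other, and their intervals, such as 45.7 to 88.1% and 51.5 to 80.9% for Rab3c, leave room for large differences. Vamp1 and Rims1 were in 0 of 20 dopamine cells, which allows a share of up to 16.8%.

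**Figure D5:**
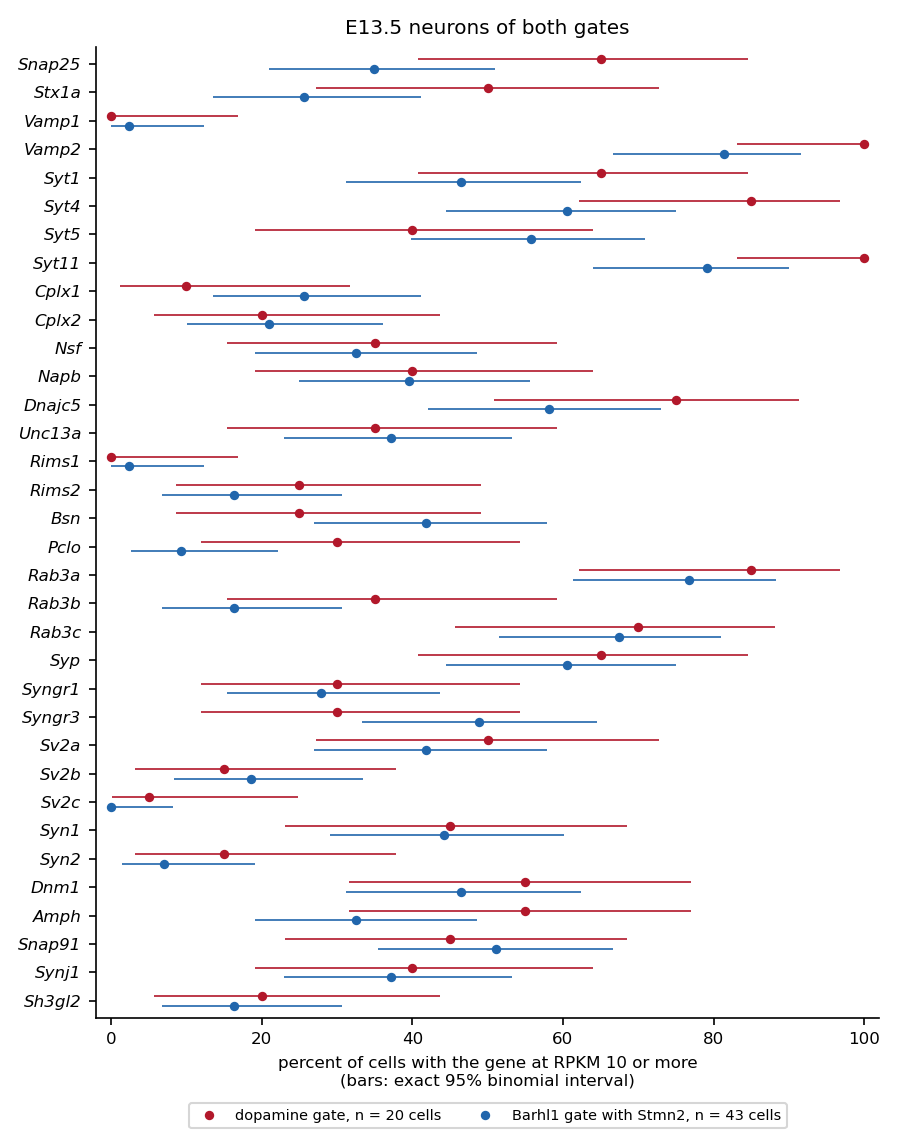
Share of E13.5 cells with each member at RPKM 10 or more, for 20 dopamine gate cells (red) and 43 Barhl1 gate cells with Stmn2 (blue), with exact 95% binomial intervals. The median number of genes detected was 4791 in the former and 4234 in the latter. Vamp2 and Syt11 reach 100% in the dopamine gate, Snap25 stands at 65% against 34.9%, and Syngr3 and Bsn lie the other way round. For each of these members the intervals of the gates overlap.

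Sv2b, the member set apart by GFP class in pools, was in similar shares of both gates: 4 of 39 dopamine cells (10.3%) and 9.32% of Barhl1 cells (15 cells). It was chosen for a further look after its pool values were seen, by EGFP at RPKM 10 or more in the single cells. Sv2b was in 6.796%, 14.8%, 18% and 15.4% of EGFP cells from E10.5 to E13.5 and in 2.94%, 0%, 3.91% and 7.55% of cells without EGFP, the larger share at all 4 stages. Most members went the other way, with 27 of 34 at a smaller share in EGFP cells at E10.5, 19 in the E11.5 sample and 30 in each of the later stages. The same count over all genes was not made, so nothing is read from these numbers about the members as a set. At E13.5 Stmn2 was in 21 of 39 EGFP cells and in 98 cells of those without EGFP (73.1% of the stage), whose median was 14 members per cell against 6, and the part of Stmn2 in the difference was not tested.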

How the data were processed

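RNA was sequenced by Smart-seq2, a full-length method without molecular identifiers, from pools of 100 cells and from single cells of mouse ventral midbrain. STAR 2.3.0 and mm10 are named in the submitters' processing notes. Sources used here do not give the counter, the annotation or the filters. The authors deposited RPKM for pools and log2(RPKM + 0.001) for cells, which was turned back to RPKM.

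Pools were fitted with limma 3.58.1 (R 4.3.3, mean-variance trend, 4 group means) on log2(RPKM + 1), for genes at 1 RPKM or more in at least 6 pools, with Benjamini-Hochberg adjustment over 15871 genes and a threshold of 0.05. A fold on this scale understates the change of low genes; ratios in the text are of mean RPKM. Replicate numbers follow accession order and pair nothing. Cells were compared as shares at RPKM 10 or more, with exact (Clopper-Pearson) 95% intervals from SciPy 1.17.1, and with no test; no doublet caller was run. Further genes were named as the 3 called genes with the largest change in each direction and a mean of at least 10 RPKM. The members and lists were chosen with earlier results of these data known. Leaving out 7 pools with over 1% globin, and the gate counts by stage, were chosen after seeing the data. Other settings tried are under the closing section.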

Additional observations from a re-analysis of the deposited data

Results flagged for a closer look

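Over the 34 members and 4 pool groups, 10 pools stood apart from the other 5 of their group by Dixon's criterion at 95%, which chance alone flags in about 1 in 20 groups. At E10.5 these were Cplx1 at 2.45 RPKM, Dnajc5 at 30.6 and Sv2c at 1.11, all in GFP+ replicate 1, Rims1 at 0.922 in GFP+ replicate 2, and Cplx1 at 18.5 in GFP- replicate 4. At E13.5 they were Dnm1 at 181 and Vamp2 at 119.7, the latter the lowest of its group, both in GFP+ replicate 6, Syn1 at 79.8 in GFP+ replicate 3, Vamp1 at 10.1 in GFP- replicate 1 and Syt5 at 78.2 in GFP- replicate 6.

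For 10 members the GFP difference changed between E10.5 and E13.5 by limma's test of that change, on the log2(RPKM + 1) scale. The change was 3.41 for Syt4, 2.01 for Unc13a, 1.91 for Syn1, 1.79 for Snap91, 1.67 for Snap25, 1.62 for Rab3c, 1.31 for Bsn, 1.29 for Rab3a, 1.03 for Sv2a and 0.81 for Syt11.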

How the results depend on the processing

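Over the alternatives other than leaving out a pool, 23 counts moved by more than 1.5 times and the rest did not. The number of members lower in GFP+ pools at E13.5, reported as 2, was 1 with a pseudocount of 0.1, with no filter on low values, with quantile normalization, with no variance trend and with array weights, 5 with a pseudocount of 10 and with only the pools of the comparison, and 0 without the 7 pools with globin. The number higher at E13.5 was 1 with no variance trend and without those pools. Without them the counts at E10.5 and for the change of the GFP difference rest on 1 E10.5 GFP- pool and are not given. Relative to pan-neuronal genes, the number higher at E13.5 was 1 with a pseudocount of 0.1, with the median as reference and with Tubb3, Stmn2 and Dcx as reference. With the median, the change between stages was above the reference for 0 members in GFP+ pools, and above for 8 and below for 6 in GFP- pools. The members with a larger share in dopamine than Barhl1 cells, 31 in all, were 19 in E12.5 cells with titles starting with C (4 and 17 cells) and 20 in those starting with F (6 and 33). Members on in all 6 pools at E10.5 were 8 at RPKM 5 and 6 at RPKM 10 in GFP+ pools, and 11 at RPKM 10 in GFP- pools.

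The sign turned for Sv2a in the change of the GFP difference (-0.06713, pseudocount 10, adjusted p = 0.866). Relative to pan-neuronal genes with a pseudocount of 0.1 it turned for Cplx1. The values were -0.88 for the GFP difference at E10.5, 1.503 between stages in GFP+ pools and 0.07893 for the change of the GFP difference. It also turned for the stage change in GFP+ pools relative to the median (Syt5 -0.73, Rab3a -0.55, Sv2a -0.77, Syn1 -0.81, Snap91 -0.76). Between gates in the C cells it turned for Syt1 (-4.41 points). The cause was not tested.

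Leaving out each pool in turn gave 1 to 2 higher and 19 to 21 lower at E10.5, 1 to 2 and 0 to 3 at E13.5, 29 to 30 and 0 to 0 between stages in GFP+ pools, 29 to 30 and 0 to 1 in GFP- pools, and 9 to 11 and 0 to 1 for the change of the GFP difference. Relative to pan-neuronal genes the ranges were 30 to 32 and 0 to 0, 1 to 2 and 0 to 0, 3 to 4 and 21 to 23, 14 to 17 and 2 to 2, and 0 to 1 and 29 to 31, in the same order. No paired analysis was possible because the labels give no replicate numbers that tie pools across groups. At the median pool depth 1 RPKM is about 5.51 reads of a 2-kilobase transcript, which limits what the scarcest members can show.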
